A study of Mus musculus with 18 samples.

Results

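The 38 genes described here encode subunits of the proteasome, the barrel-shaped protease that cuts ubiquitin-tagged proteins into peptides. They were taken by name from the *Psma*, *Psmb*, *Psmc*, *Psmd* and *Psme* families, and all 38 were found among the 55029 gene identifiers of the libraries with *E. coli* and IFN-γ and among the 54232 of the libraries with IL-4. By role they comprise 7 alpha ring genes, 4 structural beta ring genes, 3 constitutive catalytic genes, 3 immune catalytic genes, 6 ATPases and 3 other subunits of the base, 8 lid genes and 4 activators. The base and the lid form the regulatory particle, which recognises the ubiquitin tag, unfolds the substrate and feeds it into the core. In cells that sense interferon, *Psmb8*, *Psmb9* and *Psmb10* are built into new cores in place of *Psmb5*, *Psmb6* and *Psmb7*, and the activator formed by *Psme1* and *Psme2* can cap such cores. The resulting immunoproteasome is known for making peptides that MHC class I molecules present.

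RNA of mouse eosinophils was counted in 18 libraries, 3 for each stimulus and 6 for unstimulated cells. The cells came from the peritoneal cavity of C57BL/6 mice of the *Il5* transgenic line NJ.1638, and were enriched by removing cells that bear Thy1.2 or B220. They were cultured alone, or with heat-inactivated *E. coli*, with IFN-γ, with this pair together, or with IL-4. The unstimulated libraries a to c share their file layout with *E. coli* and IFN-γ, and d to f with IL-4, so each stimulus was compared with its own 3 controls. The study speaks of biological replicates, but the sources used here do not say whether each came from its own animal, so the p-values measure the spread between these samples, which may in part be technical.

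Library totals ran from 1523808 to 2734041 counts in the 12 libraries with *E. coli*, IFN-γ and unstimulated a to c, and from 3625036 to 6482289 counts in the 6 libraries with IL-4 and unstimulated d to f. In the first set no gene passed 4095 counts, just under the 4096 different identifiers that 6 bases allow. The highest count of a proteasome gene there was 2009, for *Psmb8*, which is 49.0% of that ceiling. In the IL-4 set the highest gene count was 191131. There, *Psmb7* had 7 to 14 counts and *Psmb5* 40 to 142 counts in a library, so the precision for *Psmb7* was low there. Unstimulated library e stood apart from d and f, with a chi-square per gene of 21.4 and 19.8 against 7.17 between d and f, and results of the proteasome genes with IL-4 were also computed without it.

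The labelled cell type was checked against 5 eosinophil markers. *Ccr3*, their most abundant gene, reached 1230, 1700 and 1360 CPM (counts scaled to a common library size) in unstimulated a to c, and *Siglecf* 952, 1170 and 942 CPM. *Epx*, which encodes the granule enzyme eosinophil peroxidase, had only 0 to 4 counts in each of the 12 libraries of the first set and 5 to 19 counts in the 6 of the second. With 3 counts taken as the floor, *Epx* was thus near the detection limit in the first set. Of 4 eosinophil markers tested there, 2 were lower under *E. coli*, 3 under IFN-γ and 3 under the pair, and of 5 tested with IL-4, 3 were higher and 1 lower. *Ccr3*, at up to 3576 counts, was itself close to the ceiling in the first set, which hides part of any change.

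In *E. coli* stimulated eosinophils, subunits of the constitutive core and of the regulatory particle rose while the immune catalytic subunits fell. Of the 38 genes, 18 were higher and 4 lower, against 13.5% of 9883 genes tested that were higher and 16.7% that were lower, and the median log2 change was 0.37 over the 38 genes and −0.02 over all genes. A gene counts as higher or lower where its Benjamini-Hochberg adjusted p, taken over all genes tested in edgeR's quasi-likelihood test, is under 0.05. The 4 that fell were *Psmb8*, *Psmb9*, *Psmb10* and *Psme1*. Among the other 33 genes, that is without *Psmb8*, *Psmb9*, *Psmb10*, *Psme1* and *Psme2*, 18 rose and 0 fell, and 0 were lower at an unadjusted p under 0.05 or with DESeq2. Without unstimulated library a, 11 of the 38 were higher.

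With IFN-γ, the immune catalytic subunits, the activators *Psme1* and *Psme2* and part of the alpha ring rose. In this comparison 16 of the 38 genes were higher and 0 lower, against 15.6% and 16.0% of all genes tested, with a median log2 change of 0.23 against −0.03. The number lower was 0 at an unadjusted p under 0.05 in edgeR's test and 0 with DESeq2 as well. *Psmb8*, *Psmb9*, *Psmb10*, *Psme1* and *Psme2* all rose, and 11 of the other 33 did. Without unstimulated library a, 10 of the 38 were higher.

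Cells given IFN-γ with *E. coli* had the largest number of proteasome genes above the unstimulated level among the 4 stimuli. Here 27 of the 38 were higher and 0 lower, against 23.9% and 25.2% of all genes tested, with a median log2 change of 0.57 against −0.04, and the count of lower genes was 0 also at an unadjusted p under 0.05 in edgeR's test and with DESeq2. All of *Psmb8*, *Psmb9*, *Psmb10*, *Psme1* and *Psme2* rose, and 22 of the other 33. These 3 comparisons share unstimulated libraries a to c.

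With IL-4 the only proteasome genes that rose, of the 38 tested, were *Psmb8*, *Psmb9* and *Psmb10*, and the lid gene *Psmd14* fell. These are 3 genes higher and 1 lower, against 5.97% and 4.35% of 10556 genes tested, with a median log2 change of −0.08 over the 38 genes and 0.00 over all genes. Among the 33 genes outside *Psmb8*, *Psmb9*, *Psmb10*, *Psme1* and *Psme2*, 0 rose in edgeR's test, 0 were higher at an unadjusted p under 0.05 and 0 with DESeq2. Of the same 33, 1 was lower in edgeR's test, 7 at an unadjusted p under 0.05 and 1 with DESeq2. The counts of all 38 were 3 higher and 2 lower without unstimulated library e, and 0 higher without IL-4 library 1 or without IL-4 library 3. The number lower was 4 without unstimulated d, and 0 without unstimulated f or without any one of IL-4 libraries 1, 2 and 3. It was 2 without a filter on low counts.

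**Figure D1:**
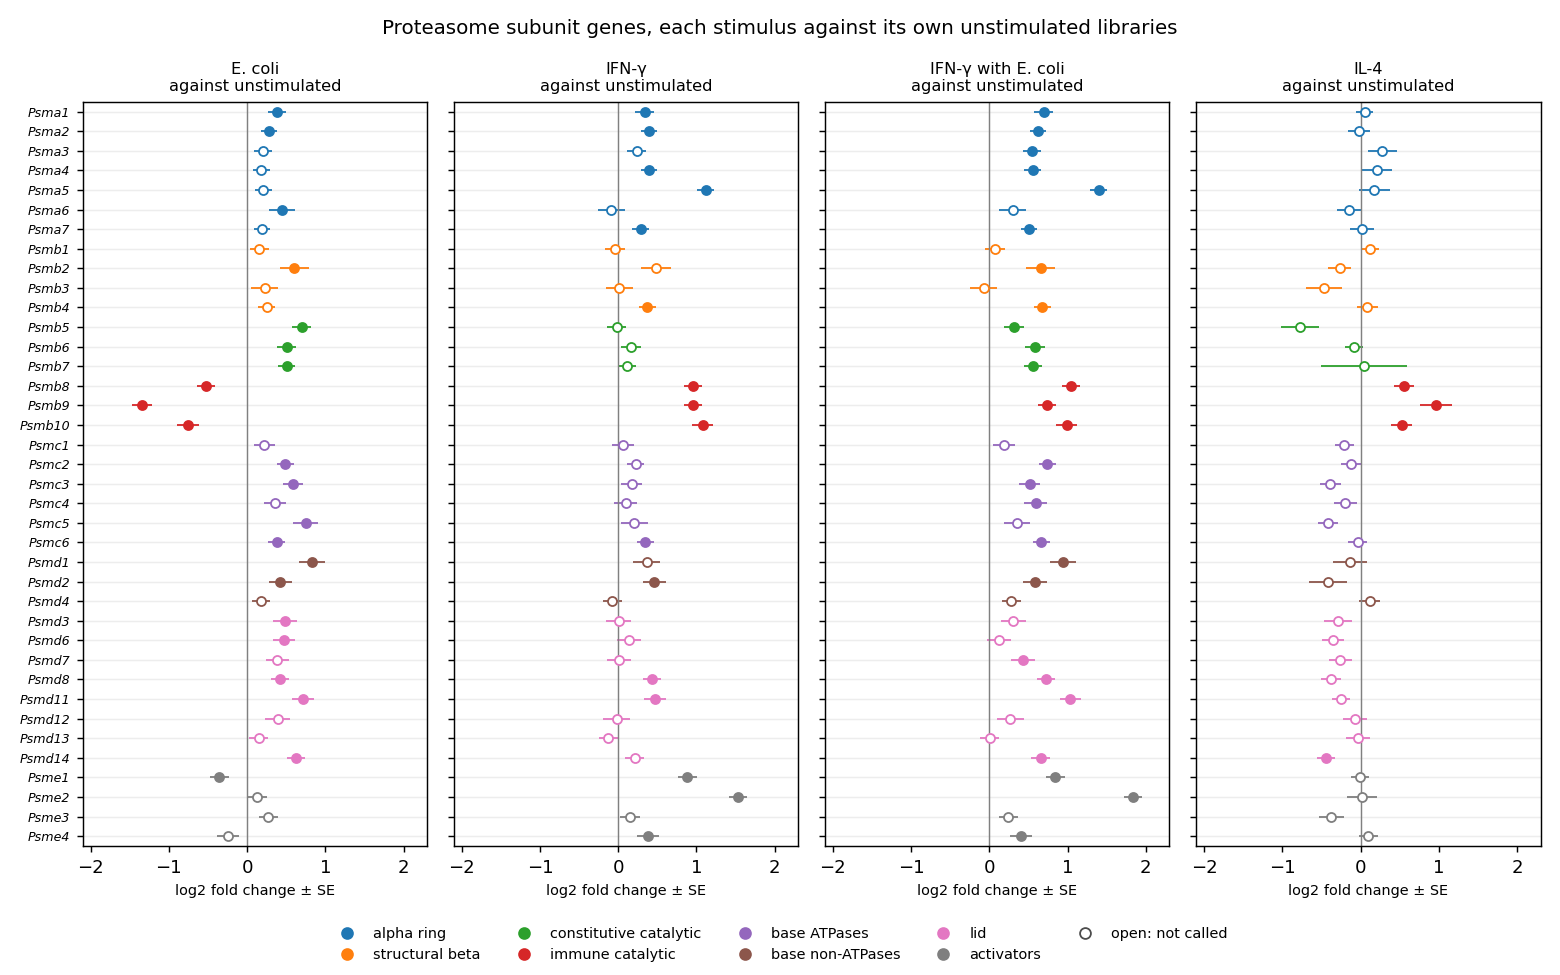
Log2 fold change with its standard error (horizontal axis) of the 38 proteasome genes, coloured by role, for each stimulus against the 3 unstimulated libraries of its own set; filled points passed the adjusted p of 0.05. *Psmb8*, *Psmb9* and *Psmb10* lie left of 0 with *E. coli*, at −0.53, −1.34 and −0.76, and right of 0 with the other 3 stimuli.

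*Psmb8* encodes the immune subunit with the chymotrypsin-like site (ENSMUSG00000024338, chr17:34197721-34201454, plus strand). It stood at 526, 634 and 498 CPM in unstimulated a to c, at 359, 366 and 426 CPM with *E. coli*, at 1124, 1017 and 1069 CPM with IFN-γ, and at 1190, 1088 and 1139 CPM with IFN-γ and *E. coli*. In the IL-4 set it stood at 394, 354 and 415 CPM in unstimulated d to f and at 601, 499 and 610 CPM with IL-4. Every *E. coli* library lay below, and every library with IFN-γ or IL-4 above, the unstimulated libraries of its set. *Psmb8* was 1.44-fold lower with *E. coli*, 1.94-fold higher with IFN-γ and 2.06-fold higher with IFN-γ and *E. coli*, log2 changes of −0.53, 0.96 and 1.05 (SE 0.116 in each), with Benjamini-Hochberg adjusted p of 0.00195, 3.87e-06 and 5.51e-07 in edgeR's quasi-likelihood test. With IL-4 it was 1.47-fold higher, a log2 change of 0.56 (SE 0.124, edgeR's quasi-likelihood test, adjusted p = 0.0186). In bulk RNA of this kind, fewer cells of a type and less RNA per cell cannot be told apart.

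*Psmb9*, the immune subunit that takes the place of *Psmb6* (ENSMUSG00000096727, chr17:34181987-34187764, minus strand), showed the largest fall with *E. coli* among the 38 genes. It was measured at 193, 219 and 194 CPM in unstimulated a to c, at 77.5, 66.2 and 96.8 CPM with *E. coli*, at 395, 389 and 389 CPM with IFN-γ, and at 318, 339 and 351 CPM with IFN-γ and *E. coli*. Its values were 128, 78.9 and 128 CPM in unstimulated d to f and 236, 172 and 247 CPM with IL-4. The groups did not overlap in any of the 4 comparisons, and unstimulated e was the lowest library of the IL-4 set. *Psmb9* was 2.53-fold lower with *E. coli*, 1.94-fold higher with IFN-γ and 1.67-fold higher with IFN-γ and *E. coli*, log2 changes of −1.34, 0.95 and 0.74 (SE 0.126, 0.118 and 0.119), with adjusted p of 2.14e-07, 5.17e-06 and 4.8e-05 in edgeR's quasi-likelihood test. IL-4 raised it 1.95-fold, a log2 change of 0.97 (SE 0.205, edgeR's quasi-likelihood test, adjusted p = 0.0143). Exons of *Psmb9* overlap those of *Tap1* on the other strand, and those of *Psmb8* an antisense gene, and since the sources used here do not give how strand was counted, these counts are uncertain to that extent.

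*Psmb10*, the immune subunit with the trypsin-like site (ENSMUSG00000031897, chr8:105935735-105938444, minus strand), lies outside the gene cluster of *Psmb8* and *Psmb9* and has no exon overlap. It stood at 193, 233 and 177 CPM in unstimulated a to c, at 113, 104 and 140 CPM with *E. coli*, at 472, 412 and 386 CPM with IFN-γ, and at 373, 370 and 450 CPM with IFN-γ and *E. coli*. In the IL-4 set its values were 254, 193 and 255 CPM without and 337, 322 and 352 CPM with IL-4. As for *Psmb8* and *Psmb9*, no stimulated group overlapped its unstimulated libraries. The changes were 1.69-fold down with *E. coli*, 2.12-fold up with IFN-γ and 1.99-fold up with IFN-γ and *E. coli*, log2 changes of −0.76, 1.08 and 0.99 (SE 0.140, 0.135 and 0.136), with adjusted p of 0.000403, 5.57e-06 and 7.57e-06 in edgeR's quasi-likelihood test. With IL-4, *Psmb10* was 1.44-fold higher, a log2 change of 0.53 (SE 0.134, edgeR's quasi-likelihood test, adjusted p = 0.0332).

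The calls of *Psmb8*, *Psmb9* and *Psmb10* with IL-4 held without unstimulated library e, where their adjusted p in edgeR's quasi-likelihood test was 0.00688, 0.00216 and 0.0136 and their log2 changes 0.49, 0.76 and 0.40. All 3 calls were lost without IL-4 library 1 or 3. Without IL-4 library 1 the adjusted p values in edgeR's test were 0.104, 0.0805 and 0.131, and without IL-4 library 3 they were 0.0957, 0.0793 and 0.135. The call of *Psmb10* was also lost without IL-4 library 2 or unstimulated f (adjusted p = 0.111 and 0.0526 in edgeR's quasi-likelihood test). The direction did not change under any setting tried.

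**Figure D2:**
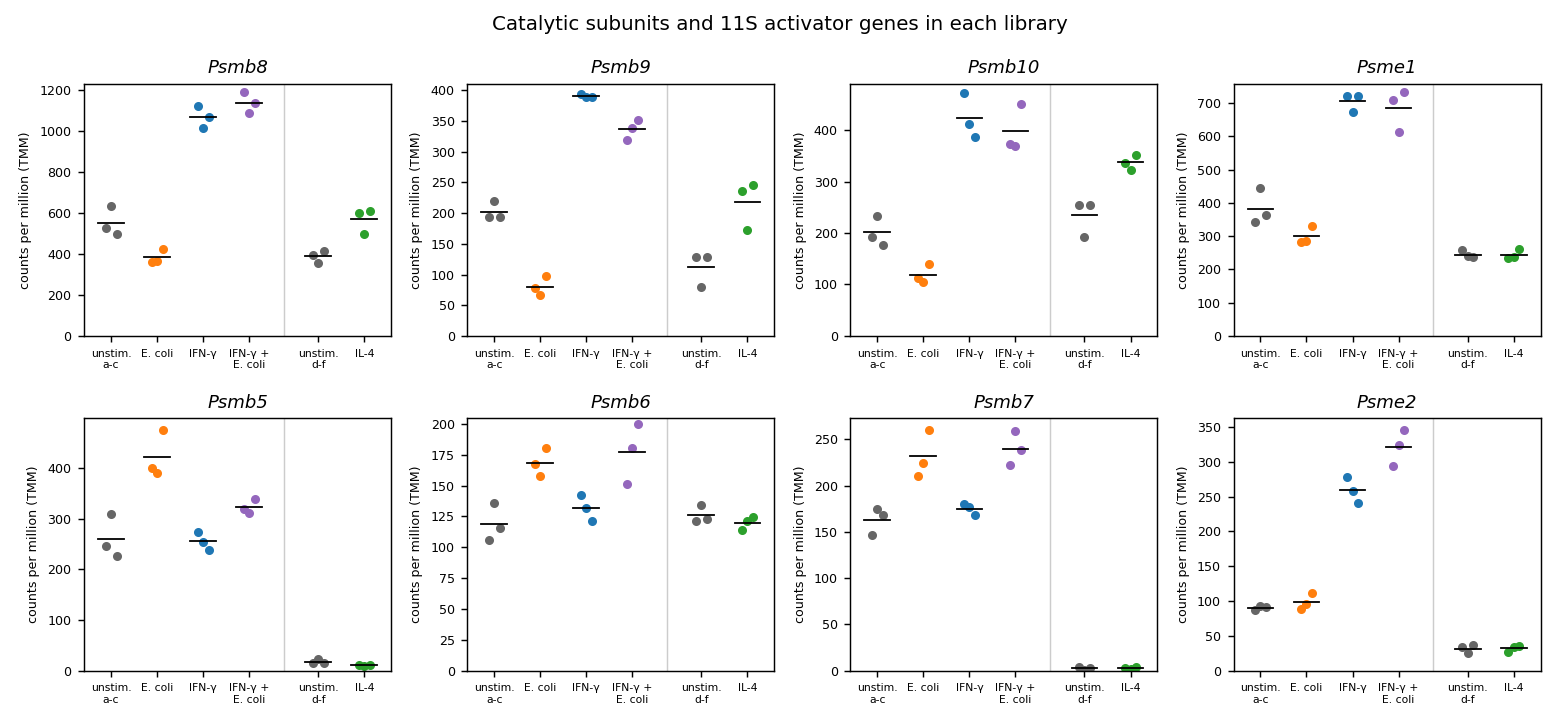
CPM (vertical axis, starting at 0) of the catalytic subunit genes and of *Psme1* and *Psme2* in each library (points), with the group mean (line); the grey line parts the set of *E. coli* and IFN-γ from the IL-4 set. *Psmb9* sits at 66.2 to 96.8 CPM with *E. coli* against 193 to 219 CPM without a stimulus, and *Psmb5* at 392 to 475 CPM against 227 to 309 CPM.

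The constitutive catalytic subunits went up with *E. coli*. *Psmb5* (ENSMUSG00000022193, chr14:54614119-54618022, minus strand), whose place *Psmb8* takes, was measured at 246, 309 and 227 CPM in unstimulated a to c, at 401, 392 and 475 CPM with *E. coli*, at 274, 255 and 239 CPM with IFN-γ, and at 319, 312 and 339 CPM with IFN-γ and *E. coli*. The libraries with *E. coli*, alone or with IFN-γ, lay above all unstimulated ones, and those with IFN-γ alone lay among them. *Psmb5* was 1.62-fold higher with *E. coli* and 1.24-fold higher with IFN-γ and *E. coli*, log2 changes of 0.70 and 0.32 (SE 0.121 and 0.123), with adjusted p of 0.000219 and 0.0404 in edgeR's quasi-likelihood test. The call with IFN-γ and *E. coli* was lost without unstimulated a or c (adjusted p = 0.13 and 0.18 in edgeR's test) and without replicate 2 or 3 of that stimulus (adjusted p = 0.0574 and 0.0774). It was also lost with at least 10 counts in every library, without a filter on low counts, and in a fit of only the 6 libraries compared (adjusted p = 0.0781, 0.0586 and 0.0807 in edgeR's test). With IFN-γ alone the log2 change was −0.02 (SE 0.124, edgeR's quasi-likelihood test, adjusted p = 0.924).

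*Psmb6* (ENSMUSG00000018286, chr11:70525367-70527858, plus strand), the constitutive subunit with the caspase-like site, gave 106, 136 and 116 CPM in unstimulated a to c, 168, 158 and 180 CPM with *E. coli*, 142, 132 and 122 CPM with IFN-γ, and 151, 181 and 200 CPM with IFN-γ and *E. coli*. *Psmb7* (ENSMUSG00000026750, chr2:38588036-38644087, minus strand), with the trypsin-like site, gave 146, 175 and 168 CPM, 211, 224 and 260 CPM, 180, 177 and 168 CPM, and 222, 259 and 239 CPM in the same 4 groups. For both genes the libraries with *E. coli*, with or without IFN-γ, lay above all unstimulated ones, and the IFN-γ group overlapped them. *Psmb6* rose 1.42-fold with *E. coli* and 1.5-fold with IFN-γ and *E. coli*, log2 changes of 0.51 and 0.59 (SE 0.124 and 0.126), with adjusted p of 0.00411 and 0.000821 in edgeR's quasi-likelihood test. *Psmb7* rose 1.42-fold and 1.48-fold, log2 changes of 0.51 and 0.56 (SE 0.112 and 0.114), with adjusted p of 0.00189 and 0.000444 in edgeR's quasi-likelihood test. With IFN-γ alone neither passed the test, at log2 changes of 0.16 and 0.11 (SE 0.128 and 0.115, adjusted p = 0.375 and 0.513 in edgeR's quasi-likelihood test).

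With IL-4 none of the 3 constitutive catalytic subunits passed edgeR's test, 1 was lower at an unadjusted p under 0.05 and 0 were called with DESeq2. *Psmb5* gave 14.2, 23.5 and 16.0 CPM in unstimulated d to f and 11.8, 9.47 and 10.4 CPM with IL-4, with groups that did not overlap and a log2 change of −0.78 (SE 0.243, edgeR's quasi-likelihood test, adjusted p = 0.07). That adjusted p was 0.168 without unstimulated e, 0.0422 without unstimulated d and 0.035 without a filter on low counts, all in edgeR's quasi-likelihood test. *Psmb6* gave 122, 134 and 123 CPM without and 114, 121 and 124 CPM with IL-4, values that overlapped, with a log2 change of −0.08 (SE 0.117, edgeR's quasi-likelihood test, adjusted p = 0.716), or −0.04 without unstimulated e. *Psmb7* gave 3.89, 1.16 and 2.45 CPM without and 2.47, 1.5 and 3.63 CPM with IL-4, where the groups overlapped and the log2 change was 0.04 (SE 0.549, edgeR's quasi-likelihood test, adjusted p = 0.972). Its direction turned without unstimulated e (log2 change −0.34) and without IL-4 library 3 (−0.30), so no difference in *Psmb7* was detectable at its 7 to 14 counts. This set is the deeper one, yet *Psmb7* was at 146 to 175 CPM in unstimulated a to c, and the cause of this gap between the sets was not tested. Exons of *Psmb7* overlap *Nek6* on the other strand and those of *Psmb5* hold a microRNA gene on the same strand, so both genes' counts are uncertain.

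Because each immune subunit takes the place of 1 constitutive subunit, the ratio of their counts in the same library was followed, with 0.5 added to each count. Such a ratio needs no scaling between libraries, but its absolute size depends on how well the 3′ end of each gene was captured, so only changes between groups of a set are read. In the first set, counts nearer the ceiling, up to 49.0% of it for *Psmb8* and 28.6% for *Psmb5*, can also compress a change in a ratio. The ratios were not computed with identifier collisions undone. The log2 ratio of *Psmb8* to *Psmb5* was 1.09, 1.03 and 1.13 in unstimulated a to c, −0.16, −0.10 and −0.16 with *E. coli*, 2.04, 1.99 and 2.16 with IFN-γ, and 1.90, 1.80 and 1.75 with IFN-γ and *E. coli*. Each of these 4 groups occupied its own range, lowest with *E. coli* and highest with IFN-γ. The log2 ratio of *Psmb9* to *Psmb6* was 0.87, 0.69 and 0.75 unstimulated, −1.11, −1.25 and −0.90 with *E. coli*, 1.47, 1.56 and 1.68 with IFN-γ, and 1.07, 0.91 and 0.81 with IFN-γ and *E. coli*. That of *Psmb10* to *Psmb7* was 0.40, 0.41 and 0.08 unstimulated, −0.90, −1.11 and −0.89 with *E. coli*, 1.39, 1.22 and 1.20 with IFN-γ, and 0.75, 0.51 and 0.92 with IFN-γ and *E. coli*. For *Psmb9* to *Psmb6*, the group given both stimuli overlapped the unstimulated range, while for *Psmb10* to *Psmb7* the 4 groups were apart.

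Across these 4 groups the ratios differed in an exact permutation test, upper tail, of the one-way F over all 369600 assignments of the 12 libraries. The p was 6.49e-05 for *Psmb8* to *Psmb5* and for *Psmb10* to *Psmb7*, the smallest that this test can give, and 0.00013 for *Psmb9* to *Psmb6* by the same exact test, or 9.74e-05, 9.74e-05 and 0.00013 when adjusted over the 3 pairs. With *E. coli* the ratios were 2.34-fold lower than unstimulated for *Psmb8* to *Psmb5*, 3.61-fold for *Psmb9* to *Psmb6* and 2.39-fold for *Psmb10* to *Psmb7*, and the mean log2 ratio with *E. coli* stood at −0.14, −1.09 and −0.96 (SD 0.037, 0.179 and 0.123, n = 3). With IFN-γ they were 1.97-fold, 1.74-fold and 1.96-fold higher than unstimulated, at means of 2.06, 1.57 and 1.27 (SD 0.085, 0.102 and 0.104, n = 3). For these 6 differences the exact permutation test, two-sided, of 3 against 3 libraries gave p = 0.1, the smallest it can give. With both stimuli the ratios were 1.66-fold, 1.12-fold and 1.35-fold higher than unstimulated, with p of 0.1, 0.2 and 0.1 in the exact permutation test, two-sided.

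In the IL-4 set the log2 ratio of *Psmb8* to *Psmb5* was 4.79, 3.91 and 4.69 without and 5.66, 5.71 and 5.86 with IL-4, and that of *Psmb9* to *Psmb6* was 0.08, −0.77 and 0.06 without and 1.05, 0.51 and 0.99 with IL-4. Unstimulated e was the lowest library in both, and the groups did not overlap. The exact permutation test, two-sided, gave p = 0.1 for each, the smallest it can give, at 2.43-fold and 2.09-fold higher ratios. The log2 differences of 1.28 and 1.06 were 1.01 and 0.78 without unstimulated e. For *Psmb10* to *Psmb7*, the log2 ratios of 5.98, 7.28 and 6.64 without and 7.04, 7.68 and 6.55 with IL-4 overlapped (exact permutation test, two-sided, p = 0.5), on the 7 to 14 counts of *Psmb7*. Its log2 difference was 0.45, or 0.77 without unstimulated e. It was smaller without unstimulated d, the lowest of its group, or without IL-4 library 2, the highest of its group.

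**Figure D3:**
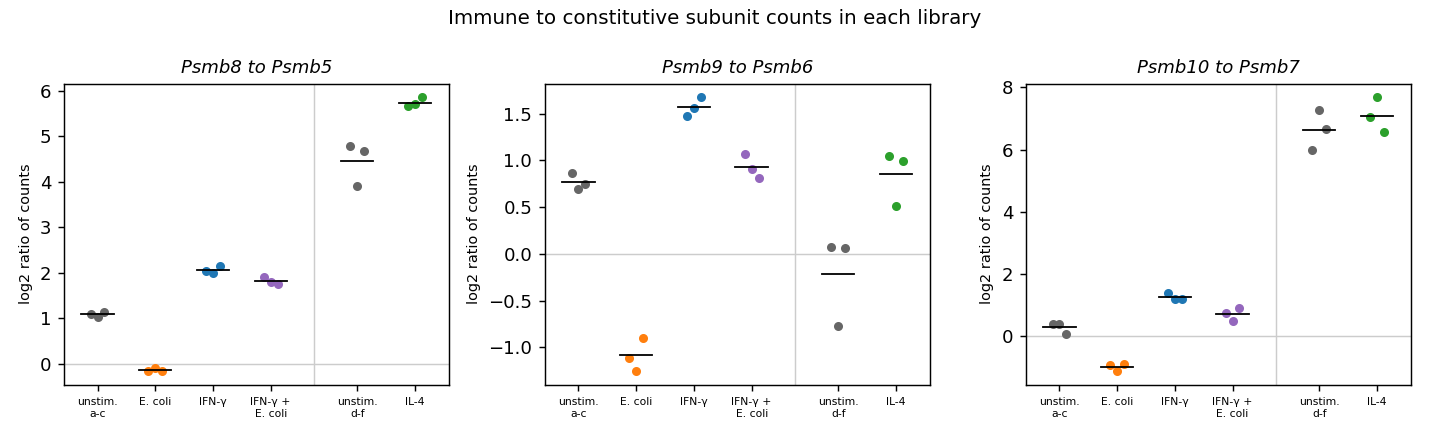
Log2 ratio of immune to constitutive subunit counts (vertical axis) in each library (points), with the group mean (line), for the 3 catalytic pairs; the grey vertical line parts the 2 sets. With *E. coli* the means are −0.14, −1.09 and −0.96, below the unstimulated means of 1.09, 0.77 and 0.30, and with IFN-γ they are 2.06, 1.57 and 1.27.

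Of the activators, *Psme1* and *Psme2*, neighbouring genes on chromosome 14 that encode the interferon-inducible ring capping the core, were measured first. *Psme1* (ENSMUSG00000022216, chr14:55578123-55581529, plus strand) stood at 341, 444 and 363 CPM in unstimulated a to c, at 282, 286 and 330 CPM with *E. coli*, at 722, 675 and 721 CPM with IFN-γ, and at 711, 613 and 734 CPM with IFN-γ and *E. coli*. *Psme2* (ENSMUSG00000079197, chr14:55587441-55591113, minus strand) stood at 86.4, 92.5 and 90.9 CPM, at 88.5, 95.6 and 112 CPM, at 278, 257 and 241 CPM, and at 294, 324 and 346 CPM in the same groups. With IFN-γ, alone or with *E. coli*, both genes lay above all unstimulated libraries, and with *E. coli* alone *Psme1* lay below them while *Psme2* overlapped them. *Psme2* was 2.88-fold higher with IFN-γ and 3.58-fold higher with IFN-γ and *E. coli*, the largest changes of the 38 genes in those comparisons, at log2 changes of 1.53 and 1.84 (SE 0.116 in each, adjusted p = 1.01e-08 and 2.88e-10 in edgeR's quasi-likelihood test). *Psme1* was 1.85-fold and 1.79-fold higher, log2 changes of 0.89 and 0.84 (SE 0.119 in each, adjusted p = 1.33e-05 and 1.12e-05 in edgeR's quasi-likelihood test).

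With *E. coli* alone, *Psme1* was 1.28-fold lower, a log2 change of −0.35 (SE 0.120, edgeR's quasi-likelihood test, adjusted p = 0.0321), and *Psme2* had a log2 change of 0.13 (SE 0.119, adjusted p = 0.437 in the same test). The fall of *Psme1* lost its call without unstimulated b (adjusted p = 0.185 in edgeR's test), without *E. coli* library 1 or 2 (adjusted p = 0.134 and 0.125), and without IFN-γ library 2 or 3 or IFN-γ with *E. coli* library 1 (adjusted p from 0.0507 to 0.0564). It was also lost without a filter on low counts and in a fit of only the 6 libraries compared (adjusted p = 0.0804 and 0.0513 in edgeR's test). With IL-4 neither gene passed the test. *Psme1* gave 257, 239 and 238 CPM in unstimulated d to f and 233, 236 and 260 CPM with IL-4, and *Psme2* 33.3, 24.7 and 36.6 CPM and 26.3, 34.6 and 35.0 CPM. The groups overlapped for both genes, with log2 changes of −0.01 and 0.02 (SE 0.112 and 0.195, adjusted p = 0.969 and 0.962 in edgeR's quasi-likelihood test). Without unstimulated e they were −0.03 and −0.14. Exons of *Psme1* overlap those of *Emc9* on the other strand, so its counts are uncertain to that extent.

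*Psme3*, which encodes a nuclear activator of the core, passed the test with none of the 4 stimuli. It stood at 116, 126 and 125 CPM in unstimulated a to c, at 152, 149 and 142 CPM with *E. coli*, at 121, 140 and 147 CPM with IFN-γ, and at 151, 119 and 166 CPM with IFN-γ and *E. coli*. Its values were 161, 237 and 203 CPM without and 146, 147 and 174 CPM with IL-4. The *E. coli* group lay above all unstimulated libraries, and the other stimulated groups overlapped theirs. Its log2 changes in that order of groups, IL-4 last, were 0.27, 0.15, 0.24 and −0.37 (SE 0.121, 0.124, 0.125 and 0.155, adjusted p = 0.0981, 0.381, 0.113 and 0.168 in edgeR's quasi-likelihood test). *Psme3* passed with *E. coli* without IFN-γ with *E. coli* library 3 (adjusted p = 0.0478 in edgeR's test) or in a fit of only the 6 libraries compared (0.0356), with both stimuli without their library 2 (adjusted p = 0.0205), and with IL-4 without unstimulated d (adjusted p = 0.0472), while without unstimulated e its adjusted p with IL-4 was 0.253.

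*Psme4*, the large single-chain activator, was at 107, 88.1 and 119 CPM in unstimulated a to c, at 93.4, 101 and 72.6 CPM with *E. coli*, at 135, 139 and 135 CPM with IFN-γ, and at 155, 147 and 117 CPM with IFN-γ and *E. coli*. The IFN-γ libraries lay above the unstimulated ones, and the other groups overlapped them. *Psme4* was 1.30-fold higher with IFN-γ and 1.33-fold higher with IFN-γ and *E. coli*, log2 changes of 0.38 and 0.41 (SE 0.141 and 0.142, adjusted p = 0.0488 and 0.0227 in edgeR's quasi-likelihood test). Leaving out unstimulated a or b ended both calls, with adjusted p of 0.108 and 0.135 for IFN-γ and of 0.054 and 0.0808 for both stimuli in edgeR's test. The call with IFN-γ was also lost with DESeq2 (adjusted p = 0.0505), without any 1 of the IFN-γ libraries 1, 2 and 3 (adjusted p = 0.0855, 0.086 and 0.0773 in edgeR's test), without *E. coli* library 1 (0.0558) and without library 2 of both stimuli (0.0522). The call with both stimuli was lost without their library 1 or 2 (adjusted p = 0.0698 and 0.0759 in edgeR's test). With at least 10 counts in every library, neither call of *Psme4* held (adjusted p = 0.0894 with IFN-γ and 0.0528 with both in edgeR's test). With *E. coli* and with IL-4 its log2 changes were −0.24 and 0.10 (SE 0.141 and 0.124, adjusted p = 0.225 and 0.662 in edgeR's quasi-likelihood test), on 87.5, 88.6 and 97.6 CPM without and 93.0, 105 and 95.4 CPM with IL-4. Without unstimulated e the change with IL-4 was 0.07.

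The 14 core genes other than *Psmb8*, *Psmb9* and *Psmb10* are the alpha ring, which gates the entrance of the barrel, and the structural and constitutive catalytic beta subunits. Of these 14, 7 were called higher under *E. coli*, 6 under IFN-γ and 11 under the pair, with median log2 changes of 0.27, 0.26 and 0.56. Over all genes tested, 13.5%, 15.6% and 23.9% were higher in these comparisons. With IL-4, 0 of the 14 passed edgeR's test, where 5.97% of all genes tested were higher and 4.35% lower. Of the 14, 1 was lower at an unadjusted p under 0.05, 0 were called with DESeq2 and 0 without unstimulated e. Their median log2 change with IL-4 was 0.03. Beside the same shares of all genes, 3 of 7 alpha ring genes rose under *E. coli*, 5 under IFN-γ and 6 under the pair. The log2 changes of the 7 ran from 0.18 to 0.45, from −0.09 to 1.12 and from 0.30 to 1.40. With IL-4 they ran from −0.15 to 0.28.

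*Psma5* led the alpha ring with IFN-γ. It stood at 260, 279 and 293 CPM in unstimulated a to c, at 308, 304 and 350 CPM with *E. coli*, at 603, 607 and 598 CPM with IFN-γ, and at 631, 793 and 767 CPM with IFN-γ and *E. coli*. All 3 stimulated groups lay above the unstimulated libraries, those with IFN-γ well above. *Psma5* was 2.17-fold higher with IFN-γ and 2.63-fold higher with both, log2 changes of 1.12 and 1.40 (SE 0.112 in each, adjusted p = 3.92e-07 and 8.1e-09 in edgeR's quasi-likelihood test). With *E. coli* alone its log2 change was 0.21 (SE 0.111, edgeR's quasi-likelihood test, adjusted p = 0.173). Exons of *Psma5* overlap an antisense gene, so its counts are uncertain to that extent.

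With *E. coli* the alpha ring gene with the largest rise was *Psma6*, at 68.2, 84.3 and 55.3 CPM in unstimulated a to c and 88.5, 84.9 and 108 CPM with *E. coli*. The groups were apart by less than 1 CPM, between unstimulated b and *E. coli* library 2. *Psma6* rose 1.36-fold, a log2 change of 0.45 (SE 0.164, edgeR's quasi-likelihood test, adjusted p = 0.0454). The call was lost with DESeq2 (adjusted p = 0.0673), without unstimulated a or c (adjusted p = 0.118 and 0.205 in edgeR's test), and without *E. coli* library 1 or 3 (adjusted p = 0.0648 and 0.152), and with at least 10 counts in every library (0.056). With IL-4 the alpha ring gene with the lowest adjusted p was *Psma3*, at 77.2, 48.2 and 70.2 CPM without and 87.9, 78.6 and 69.2 CPM with IL-4. Its groups overlapped, with a log2 change of 0.28 (SE 0.185, edgeR's quasi-likelihood test, adjusted p = 0.387), or 0.10 without unstimulated e (adjusted p = 0.724).

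Among the 4 structural beta ring genes 1 rose under *E. coli*, 1 under IFN-γ and 2 under the pair, where 13.5%, 15.6% and 23.9% of all genes tested were higher. *Psmb2* stood at 68.2, 53.9 and 52.4 CPM in unstimulated a to c and at 82.0, 91.9 and 93.3 CPM with *E. coli*. The groups were apart, and *Psmb2* rose 1.52-fold, a log2 change of 0.61 (SE 0.182, edgeR's quasi-likelihood test, adjusted p = 0.0164, or 0.0697 without unstimulated c). *Psmb4* stood at 336, 395 and 379 CPM unstimulated, at 520, 451 and 466 CPM with IFN-γ, and at 530, 606 and 633 CPM with IFN-γ and *E. coli*. Both stimulated groups lay above the unstimulated libraries, and *Psmb4* rose 1.30-fold and 1.60-fold, log2 changes of 0.37 and 0.68 (SE 0.109 in each, adjusted p = 0.0136 and 4.98e-05 in edgeR's quasi-likelihood test). The call with IFN-γ was lost without unstimulated a or IFN-γ library 1 (adjusted p = 0.0753 and 0.0653 in edgeR's test). With IL-4, *Psmb3* had the lowest adjusted p of the 4, at 20.8, 40.4 and 33.4 CPM without and 21.9, 21.9 and 25.7 CPM with IL-4, groups that overlapped, and a log2 change of −0.47 (SE 0.229, edgeR's quasi-likelihood test, adjusted p = 0.238, or 0.493 without unstimulated e and 0.04 without unstimulated d).

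Beside the 13.5%, 15.6% and 23.9% of all genes tested that were higher, of the 17 genes of the base and the lid 11 rose under *E. coli*, 4 under IFN-γ and 10 under the pair, with median log2 changes of 0.43, 0.17 and 0.52. With IL-4 the median was −0.25 and 1 of the 17 fell in edgeR's test, against 5 lower at an unadjusted p under 0.05, 1 with DESeq2 and 2 without unstimulated e. The 6 ATPases of the base form the motor that unfolds substrate. Of these 6, 4 rose under *E. coli*, 1 under IFN-γ and 4 under the pair.

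*Psmc5* led the ATPases with *E. coli*, at 45.5, 45.6 and 44.2 CPM in unstimulated a to c and 66.9, 67.5 and 94.3 CPM with *E. coli*. It rose 1.68-fold, a log2 change of 0.75 (SE 0.160, edgeR's quasi-likelihood test, adjusted p = 0.00146), with groups apart. *Psmc6* led with IFN-γ, at 126, 146 and 136 CPM unstimulated and 171, 173 and 174 CPM with IFN-γ. Its groups were also apart, and it rose 1.27-fold, a log2 change of 0.35 (SE 0.107, edgeR's quasi-likelihood test, adjusted p = 0.0199, or 0.0964 without unstimulated a). With both stimuli *Psmc2* led, at 154, 160 and 162 CPM unstimulated and 271, 278 and 245 CPM stimulated, which were apart. It rose 1.67-fold, a log2 change of 0.74 (SE 0.110, edgeR's quasi-likelihood test, adjusted p = 2e-05). *Psmc5* was also the ATPase with the lowest adjusted p with IL-4, at 72.8, 72.7 and 71.9 CPM without and 55.4, 55.0 and 52.1 CPM with IL-4. There the groups were apart in the other direction, with a log2 change of −0.42 (SE 0.126) that did not pass edgeR's quasi-likelihood test (adjusted p = 0.0611, or 0.0402 without unstimulated e).

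*Psmd1* and *Psmd2* encode the large scaffold subunits of the base, which dock ubiquitin receptors. *Psmd1* stood at 137, 109 and 173 CPM in unstimulated a to c, at 258, 251 and 239 CPM with *E. coli*, and at 328, 265 and 216 CPM with IFN-γ and *E. coli*. Both stimulated groups lay above the unstimulated one, and *Psmd1* rose 1.78-fold and 1.92-fold, log2 changes of 0.83 and 0.94 (SE 0.165 and 0.167, adjusted p = 0.000783 and 0.000132 in edgeR's quasi-likelihood test). *Psmd2* stood at 61.1, 51.3 and 65.3 CPM unstimulated and at 75.0, 69.7 and 104 CPM with IFN-γ. The groups were apart, and *Psmd2* rose 1.38-fold, a log2 change of 0.46 (SE 0.153, edgeR's quasi-likelihood test, adjusted p = 0.0265), a call that was lost without unstimulated a or b or IFN-γ library 3 (adjusted p = 0.064, 0.079 and 0.166 in edgeR's test). In the IL-4 set *Psmd2* was at 41.7, 85.0 and 46.6 CPM without and 42.0, 47.0 and 41.7 CPM with IL-4. Unstimulated e was high and the groups overlapped, with a log2 change of −0.41 (SE 0.245, edgeR's quasi-likelihood test, adjusted p = 0.323), or −0.02 without unstimulated e (adjusted p = 0.951). Exons of *Psmd1* overlap other genes, including 1 on its own strand, so its counts are uncertain.

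In the lid, which removes the ubiquitin chain, 5 of 8 genes rose under *E. coli*, 2 under IFN-γ and 4 under the pair. Over all genes tested, 13.5%, 15.6% and 23.9% were higher in these comparisons. *Psmd11* led the lid in all 3 comparisons. It stood at 74.5, 79.2 and 77.6 CPM in unstimulated a to c, at 113, 119 and 148 CPM with *E. coli*, at 111, 103 and 106 CPM with IFN-γ, and at 140, 141 and 193 CPM with IFN-γ and *E. coli*. No stimulated library overlapped the unstimulated ones. *Psmd11* rose 1.64-fold, 1.38-fold and 2.05-fold, log2 changes of 0.72, 0.47 and 1.04 (SE 0.137, 0.141 and 0.139, adjusted p = 0.000558, 0.0166 and 5.98e-06 in edgeR's quasi-likelihood test). With IFN-γ its call was lost without unstimulated a or IFN-γ library 1 (adjusted p = 0.0643 and 0.0515 in edgeR's test).

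*Psmd14* encodes the metalloprotease of the lid that cuts the chain off, and was the 1 proteasome gene that fell with IL-4. It was at 184, 204 and 197 CPM in unstimulated d to f and 154, 135 and 141 CPM with IL-4, with groups apart. The fall was 1.36-fold, a log2 change of −0.45 (SE 0.117, edgeR's quasi-likelihood test, adjusted p = 0.0369, or 0.0172 without unstimulated e). The call was lost without IL-4 library 1, 2 or 3 (adjusted p = 0.099, 0.165 and 0.111 in edgeR's test) and without unstimulated f (adjusted p = 0.0874). In the other set *Psmd14* stood at 131, 150 and 130 CPM in unstimulated a to c, at 196, 212 and 226 CPM with *E. coli*, and at 186, 220 and 238 CPM with IFN-γ and *E. coli*. Both stimulated groups lay above the unstimulated one, at log2 changes of 0.63 and 0.66 (SE 0.115 and 0.117, adjusted p = 0.000345 and 0.000136 in edgeR's quasi-likelihood test).

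Compared with *E. coli* directly, IFN-γ gave higher levels of the immune subunits and lower levels of the constitutive catalytic subunits. Here 7 of the 38 genes were higher and 9 lower, against 14.1% and 11.5% of all genes tested, with a median log2 difference of −0.18 over the 38 genes and −0.02 over all genes. The 5 genes *Psmb8*, *Psmb9*, *Psmb10*, *Psme1* and *Psme2* were higher by log2 differences of 1.48, 2.29, 1.84, 1.24 and 1.39 (adjusted p = 1.4e-08, 1.2e-10, 7.64e-09, 2.19e-07 and 2.14e-08 in edgeR's quasi-likelihood test). *Psmb5*, *Psmb6* and *Psmb7* were lower by −0.72, −0.35 and −0.40 on the log2 scale (SE 0.122, 0.125 and 0.112, adjusted p = 0.000173, 0.0452 and 0.0124 in edgeR's quasi-likelihood test). The number lower was 2 without *E. coli* library 3, 2 without IFN-γ library 3 and 3 without IFN-γ library 2. The call of *Psmb6* was lost with DESeq2 or its size factors (adjusted p = 0.0741 and 0.0551), without a filter on low counts (0.0635) and without any of 8 libraries, namely *E. coli* 1, 2 and 3, IFN-γ 1, 2 and 3, IFN-γ with *E. coli* 2 and unstimulated c, where its adjusted p ran from 0.0529 to 0.17 in edgeR's test. That of *Psmb7* was lost without *E. coli* library 3 or IFN-γ library 3 (adjusted p = 0.0734 and 0.0545 in edgeR's quasi-likelihood test).

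Adding IFN-γ to *E. coli* raised the immune genes, 4 of which *E. coli* alone had lowered. Against *E. coli* alone, 15 of the 38 genes were higher and 1 lower, against 17.5% and 15.3% of all genes tested, with a median log2 difference of 0.13 over the 38 genes and −0.02 over all genes. *Psmb9* was 4.23-fold, *Psmb10* 3.35-fold, *Psmb8* 2.97-fold, *Psme2* 3.27-fold and *Psme1* 2.29-fold higher, and 10 of the other 33 genes rose, 6 of them in the alpha ring. The 1 gene that fell was *Psmb5*, by 0.38 on the log2 scale (SE 0.121, edgeR's quasi-likelihood test, adjusted p = 0.0203). It lost its call without *E. coli* library 3 or library 1 or 2 of both stimuli (adjusted p = 0.0948, 0.0568 and 0.0716 in edgeR's test), and the number lower was then 0. The number lower was 2 without library 3 of both stimuli or unstimulated b, or with at least 10 counts in every library. The number higher was 9 without *E. coli* library 1 or 2 or library 3 of both stimuli, and 8 without a filter on low counts.

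Adding *E. coli* to IFN-γ raised other genes. Against IFN-γ alone, 7 of the 38 genes were higher and 0 lower, against 6.25% and 5.98% of all genes tested, with a median log2 difference of 0.29 over the 38 genes and 0.01 over all genes. At an unadjusted p under 0.05 in edgeR's test 20 were higher and 0 lower, and DESeq2 called 7 higher and 0 lower. The 7 were *Psmb6*, *Psmb7*, *Psmc2*, *Psmc4*, *Psmd1*, *Psmd11* and *Psmd14*, at log2 differences of 0.43, 0.46, 0.52, 0.50, 0.58, 0.57 and 0.44, and none was an immune subunit. For *Psmb8*, *Psmb9* and *Psmb10* the log2 differences were 0.09, −0.22 and −0.09 (SE 0.114, 0.117 and 0.132, adjusted p = 0.694, 0.268 and 0.736 in edgeR's quasi-likelihood test). The activator *Psme2* lay above the IFN-γ libraries with both stimuli, at 294, 324 and 346 CPM against 278, 257 and 241 CPM. Its log2 difference of 0.31 passed at an unadjusted p under 0.05 in edgeR's test, but not at the adjusted threshold. The number higher was 2 without IFN-γ library 2, 2 without library 2 of both stimuli, 3 without library 3 of either group, and 4 in a fit of only the 6 libraries compared. *Psmb6* lost its call without any of IFN-γ libraries 1, 2 and 3 or library 2 or 3 of both stimuli (adjusted p from 0.0551 to 0.125 in edgeR's quasi-likelihood test), and *Psmb7* without IFN-γ library 3 or library 2 of both stimuli (0.0503 and 0.0741). That of *Psmb6* was also lost without a filter on low counts (0.0651) and in the 6 libraries alone (0.0695).

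Whether the joint change departs from the sum of the separate changes on the log2 scale was tested as an interaction. Of the 38 genes 2 were higher and 0 lower in that test, against 2.58% and 2.04% of all genes tested, with 3 higher and 3 lower at an unadjusted p under 0.05 and 3 higher and 0 lower with DESeq2. The median was −0.05 over the 38 genes and 0.00 over all genes, and the number higher was 3 without *E. coli* library 3 or unstimulated c, or with at least 10 counts in every library. *Psmb9*, lower with *E. coli* alone and higher with IFN-γ alone or with both, had an interaction of 1.13 (SE 0.171, edgeR's quasi-likelihood test, adjusted p = 0.000719), which passed in each of 17 other settings. *Psmb8* had one of 0.61 (SE 0.163, edgeR's quasi-likelihood test, adjusted p = 0.034). It was lost without any 1 of 10 libraries, namely *E. coli* 1 and 2, IFN-γ 1, 2 and 3, IFN-γ with *E. coli* 1, 2 and 3, and unstimulated a and b, where the adjusted p ran from 0.0561 to 0.129 in edgeR's test, and without a filter on low counts (0.0605). *Psmb10* had one of 0.66 (SE 0.192, edgeR's quasi-likelihood test, adjusted p = 0.0544), which passed with DESeq2 (adjusted p = 0.0388), without *E. coli* library 3 (0.0187), without unstimulated c (0.0475), with at least 10 counts in every library (0.0372) and without a filter on low counts (0.0443).

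The change with IL-4 was set against the change with IFN-γ in a fit of all 18 libraries with separate unstimulated groups. Of the 38 genes the signed log2 change with IL-4 was above that with IFN-γ for 0 and below it for 15, against 13.0% and 14.7% of 10671 genes tested, with a median log2 difference of −0.39 over the 38 genes and 0.02 over all genes. The number above was 0 also at an unadjusted p under 0.05 in edgeR's test and with DESeq2, and the 15 and 0 were the same in number without unstimulated e. The number below ran from 10 to 17 with 1 library left out at a time, and it includes genes such as *Psmb5*, whose change was downward with IL-4. *Psme2*, *Psma5* and *Psme1* differed by −1.54, −0.97 and −0.93 on the log2 scale (SE 0.205, 0.225 and 0.159, adjusted p = 8.08e-06, 0.00254 and 0.00015 in edgeR's quasi-likelihood test). *Psmb10* differed by −0.59 (SE 0.193, edgeR's quasi-likelihood test, adjusted p = 0.0266), and its call was lost without IFN-γ library 1, IL-4 library 2 or unstimulated a, c, d or f, where the adjusted p ran from 0.0505 to 0.0704, and with at least 10 counts in every library (0.0666). *Psmb8* and *Psmb9* did not pass, at −0.43 and −0.02 (SE 0.164 and 0.233, adjusted p = 0.0535 and 0.975 in edgeR's quasi-likelihood test). *Psmb8* passed without unstimulated b or e, IL-4 library 3, *E. coli* library 3 or library 3 of both stimuli (adjusted p from 0.0154 to 0.0499), with DESeq2 (0.0249) or its size factors (0.0478), and with identifier collisions undone (0.00788). The 2 unstimulated groups differ in file layout and depth, and these cannot be told apart from the stimulus in this comparison.

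Genes that work with the proteasome were counted from further lists. Of 12 genes for peptide loading on MHC class I, 3 rose and 0 fell with IL-4, against 5.97% and 4.35% of all genes tested, with a median log2 change of 0.20, and without unstimulated e, 5 of the 12 rose and 1 fell. The 0 that fell in edgeR's test compares with 1 at an unadjusted p under 0.05 and 1 with DESeq2. In the set of *E. coli* and IFN-γ, *B2m*, *H2-K1* and *H2-D1* of this list were at or close to the ceiling, so no count of the list is given there. *Tapbpl*, which encodes an MHC class I peptide editor, had the largest rise with both stimuli among the further genes, from 64.1, 57.7 and 54.9 CPM unstimulated to 301, 279 and 243 CPM, a log2 change of 2.22 (SE 0.125, edgeR's quasi-likelihood test, adjusted p = 6.04e-11). *Tap1*, a subunit of the peptide transporter that lies between *Psmb9* and *Psmb8* on chromosome 17, was chosen after its values were seen. It stood at 279, 344 and 313 CPM in unstimulated a to c, at 228, 207 and 240 CPM with *E. coli*, at 673, 682 and 725 CPM with IFN-γ, and at 218, 212 and 236 CPM without and 335, 385 and 358 CPM with IL-4. Like the immune subunits it was below the unstimulated range with *E. coli* and above it with IFN-γ and IL-4, at log2 changes of −0.47, 1.15 and 0.70 (SE 0.111, 0.110 and 0.114, adjusted p = 0.00315, 2.11e-07 and 0.00378 in edgeR's quasi-likelihood test). Without unstimulated e the change of *Tap1* with IL-4 was 0.66 (adjusted p = 0.000618 in edgeR's quasi-likelihood test). Exons of *Tap1* overlap those of *Psmb9* on the other strand, so *Tap1* and *Psmb9* may share counts.

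*Irf1*, an interferon-induced factor known to act on immune subunit genes, had the largest rise of the further genes with IFN-γ and with IL-4. It stood at 290, 322 and 324 CPM in unstimulated a to c, at 178, 183 and 191 CPM with *E. coli*, at 1315, 1293 and 1352 CPM with IFN-γ, and at 265, 225 and 269 CPM without and 505, 515 and 466 CPM with IL-4. The groups were apart throughout, and the log2 changes were −0.76, 2.08 and 0.97 (SE 0.103, 0.102 and 0.119, adjusted p = 1.52e-05, 2.47e-11 and 0.000782 in edgeR's quasi-likelihood test), and with IL-4 the change was 0.89 without unstimulated e (adjusted p = 2.66e-05). With IFN-γ its counts came closer to the ceiling than those of *Psmb8*, which compresses a rise. *Nfe2l1*, a factor known to drive constitutive proteasome genes when proteolysis falls short, had the largest rise with *E. coli*, from 34.7, 38.7 and 41.3 CPM to 74.2, 77.2 and 80.5 CPM, a log2 change of 1.02 (SE 0.158, edgeR's quasi-likelihood test, adjusted p = 6.94e-05). *Nfe2l1* also lay above the unstimulated range with IFN-γ, at 61.6, 48.7 and 57.5 CPM, and with both, at 75.2, 99.2 and 120 CPM. With IL-4 it lay below, at 23.4, 24.8 and 26.4 CPM against 30.6, 48.2 and 31.1 CPM in unstimulated d to f, but did not pass edgeR's test. Unstimulated e was the highest of these, and without it the log2 change of *Nfe2l1* was −0.32 (SE 0.167, edgeR's quasi-likelihood test, adjusted p = 0.263).

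Of 8 assembly factors tested, 1 rose with *E. coli*, 1 rose and 2 fell with IFN-γ, and 1 rose and 3 fell with both stimuli. Over all genes tested, 13.5% were higher and 16.7% lower with *E. coli*, 15.6% and 16.0% with IFN-γ, and 23.9% and 25.2% with both, beside which these and the other further counts are to be read. *Pomp*, the chaperone that closes new cores, chosen after its values were seen, was at 139, 151 and 154 CPM unstimulated, 331, 287 and 307 CPM with IFN-γ and 302, 331 and 410 CPM with both, groups that were apart, with log2 changes of 1.06 and 1.24 (SE 0.120 in each, adjusted p = 1.74e-06 and 1.01e-07 in edgeR's quasi-likelihood test). *Psmg1*, a chaperone of the alpha ring, had the largest fall of the further genes with IFN-γ and with both, from 22.7, 31.1 and 19.0 CPM to 11.8, 13.3 and 9.81 CPM and to 8.76, 6.03 and 7.25 CPM, log2 changes of −1.02 and −1.71 (SE 0.233 and 0.261, adjusted p = 0.00254 and 2.71e-05 in edgeR's quasi-likelihood test). Of 10 associated proteins and inhibitors 4 rose with *E. coli*, 3 with IFN-γ, and 6 rose and 1 fell with both. Of 3 ubiquitin genes tested 1 fell with *E. coli*, 1 rose with IFN-γ and 2 rose with both. With IL-4, 0 of 8 assembly factors, 0 of 10 associated proteins and 0 of 2 ubiquitin genes tested passed edgeR's test, against 1, 0 and 1 at an unadjusted p under 0.05 0, 0 and 1 with DESeq2, and 0 of each without unstimulated e. The 2 tissue-restricted subunits *Psma8* and *Psmb11* did not pass the filter on low counts.

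Markers of other cell types moved with some of the same comparisons. Of 8 macrophage markers 4 were lower with *E. coli*, 3 were higher and 1 lower with IFN-γ, 2 were higher with both, and 4 were lower with IL-4. Their summed level, with *Lyz2* the most abundant, was 1560, 1480 and 1490 CPM in unstimulated a to c, 841, 778 and 1270 CPM with *E. coli*, 1970, 1800 and 1970 CPM with IFN-γ, 1630, 1910 and 2170 CPM with both, 2190, 2300 and 2770 CPM in unstimulated d to f and 1480, 1460 and 1700 CPM with IL-4. The sums lay below the unstimulated range with *E. coli* and above it with IFN-γ and with both, as did *Psmb8*, *Psmb9* and *Psmb10*. With IL-4 the sums lay below the unstimulated range and those 3 genes above it. Of the 8 markers, 0 were called higher with IL-4, but *Timd4* and *Gata6* lay above unstimulated d to f. *Timd4* was at 55.0, 53.2 and 75.7 CPM without and 81.8, 103 and 80.1 CPM with IL-4. The summed level of 5 B cell markers, with *Cd79a* the most abundant, was 88.7, 91.3 and 53.3 CPM in unstimulated a to c, 24.9, 18.7 and 32.6 CPM with *E. coli*, 38.1, 29.2 and 28.8 CPM with IFN-γ, and 54.8, 72.3 and 62.0 CPM with both, and of 4 tested, 4, 3 and 0 were lower. With IL-4 it was 19.6, 19.1 and 31.1 CPM against 6.39, 5.30 and 13.8 CPM, and 2 of 3 tested were higher. The part of these cells in the results was not tested.

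The summed level of 6 neutrophil markers, led by *S100a8*, was 11.6, 12 and 17.3 CPM in unstimulated a to c, 59.6, 43.8 and 127 CPM with *E. coli*, 61.6, 52.8 and 68.7 CPM with IFN-γ and 48.2, 65.2 and 96.9 CPM with both, while *Mpo*, *Elane* and *Ltf* had at most 2 counts in any of these 12 libraries. Of 2 tested, 1, 2 and 2 were higher. That of 4 mast cell markers, led by *Tpsb2*, was 5.70 to 8.94 CPM in unstimulated a to c, 5.02 to 31.1 CPM with *E. coli*, 13.1 to 27.4 CPM with IFN-γ and 35.1 to 67.9 CPM with both, and of 2 tested 0, 1 and 2 were higher. The mast cell sum was 7.22, 5.96 and 6.8 CPM in unstimulated d to f. With IL-4 it lay above these, at 14.6, 7.64 and 20.5 CPM, and 0 of 2 tested were higher. The sum of 4 dendritic cell markers was 5.55, 4.14 and 7.36 CPM in unstimulated d to f and 7.42, 13.5 and 17.4 CPM with IL-4, and 1 of 2 tested was higher. That of 3 erythroid markers was 27.6, 49.4 and 38 CPM in unstimulated a to c and 84.0, 99.2 and 77.8 CPM with IFN-γ and *E. coli*, and 2 of 2 tested were higher. Sums of 6 T or NK cell and 3 mesothelial markers were at most 8.57 and 1.70 CPM in any of the 18 libraries. The part of these cell types in the results was likewise not tested.

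Promoters were read for the antioxidant element, and matches to interferon-linked letters are not described here. Windows of 250 bases before the gene start were found in the RefSeq table (GRCm38.p6) for 32 of the 38 genes, and both strands were searched. TGACNNNGC, core letters of that element, to which NFE2 family factors such as the product of *Nfe2l1* bind, was in 10.2% of 32817 promoter windows of all genes and in those of *Psmb5*, *Psmb6*, *Psmc6* and *Psmd12*, 4 of the 32. Most genes that rose with *E. coli* and have a window hold no match.

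The match lay closest to the start in *Psmb6* and *Psmb5*, 9 and 47 bases before the start in the RefSeq table, which differs from the gene start given with each gene above, and these promoters are shown as the closest matches. The sequence of *Psmb5* is chr14:54618023-54618245, minus strand, without the last 27 bases before the RefSeq start, which lie in an exon of *Psmb5*, and that of *Psmb6* is chr11:70525107-70525356, plus strand. Both are of RefSeq GRCm38.p6, written 5′ to 3′ with the matched letters in capitals. A match of letters is a description of the sequence, and binding was not measured.
Psmb5: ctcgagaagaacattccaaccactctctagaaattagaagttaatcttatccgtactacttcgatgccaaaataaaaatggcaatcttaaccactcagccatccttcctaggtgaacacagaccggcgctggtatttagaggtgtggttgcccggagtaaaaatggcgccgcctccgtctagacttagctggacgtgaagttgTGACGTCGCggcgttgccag
Psmb6: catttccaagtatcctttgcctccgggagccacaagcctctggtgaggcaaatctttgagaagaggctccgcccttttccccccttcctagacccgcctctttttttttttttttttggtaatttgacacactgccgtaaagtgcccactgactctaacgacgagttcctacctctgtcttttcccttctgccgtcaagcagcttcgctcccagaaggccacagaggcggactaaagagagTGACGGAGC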

How the data were processed

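The authors deposited gene counts in 2 file layouts, made with CEL-Seq2, fastp 0.20.1 and STAR 2.7.2a or TopHat2 2.1.0, and HTSeq 0.6.1 on GRCm38. The sources used here do not state how molecular identifiers were collapsed. Entries naming no gene, present only in the 12 libraries of the layout with *E. coli* and IFN-γ at 21.12% to 39.42% of their counts, were dropped, and the 2 layouts were scaled and fitted apart. Genes were filtered with filterByExpr, scaled by TMM and tested in edgeR 4.0.16 (R 4.3.3) with the quasi-likelihood test and Benjamini-Hochberg adjusted p, and again with DESeq2 1.42.0. Ratios were tested by exact permutation in Python 3.11.15 with scipy 1.17.1. The fit was also tried on simulated data, from which no result is drawn here. The proteasome genes and the further lists were chosen with earlier results of these data known. Named throughout were the catalytic subunits and activators, and for each other role and stimulus the gene with the largest change among those that passed the test, or, where none passed, the lowest adjusted p. Each library was left out in turn, and other filters, scalings, a 2-fold minimum, a fit of only the 6 libraries compared, a replicate block, and counts with identifier collisions undone were tried.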

Additional observations from a re-analysis of the deposited data

Results flagged for a closer look

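These genes had 2 effects that differed in a test of the difference itself, edgeR's quasi-likelihood test over all genes. The log2 effect of *E. coli* with IFN-γ less that without was 0.61 for *Psmb8* and 1.13 for *Psmb9*, which fell with *E. coli* alone and did not pass with *E. coli* added to IFN-γ. The log2 effect of IL-4 less that of IFN-γ was −1.54 for *Psme2*, −0.97 for *Psma5*, −0.93 for *Psme1*, −0.92 for *Psmd2*, −0.84 for *Psmd8*, −0.80 for *Psmb5*, −0.79 for *Psmb2* and −0.75 for *Psmd11*. It was −0.69 for *Psmd14*, −0.66 for *Psmc5*, −0.59 for *Psmc3*, −0.59 for *Psmb10*, −0.56 for *Psme3*, −0.45 for *Psma2* and −0.41 for *Psmc6*. Without unstimulated e, *Psmb5*, *Psmd2*, *Psme3* and *Psma2* no longer passed. Of 23 other settings, *Psmc6* and *Psma2* were lost in 15 each, *Psme3* in 10, *Psmb10* in 7, *Psmd2*, *Psmb2* and *Psmc5* in 3 each, *Psmc3* in 2 and *Psmb5* in 1, and of 17 others *Psmb8* was lost in 11, mostly with a single library left out.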

How the results depend on the processing

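Of 1743 values of 98 single-gene results under other settings, 1550 kept direction and side of the threshold, 151 no longer passed, 21 newly passed and 21 turned direction, and the cause was not tested. The ratios were tried only with 1 library left out at a time and with 5 added to each count, and kept their direction in each. With 3 libraries a group, single libraries carried several calls. Leaving 1 library out at a time, the number of proteasome genes higher ran from 11 to 21 with *E. coli*, 10 to 18 with IFN-γ and 0 to 3 with IL-4 (lower, 0 to 4). It ran from 2 to 8 for both stimuli against IFN-γ, 9 to 15 against *E. coli* (lower, 0 to 2), and 1 to 3 for the interaction, and 2 to 9 were lower with IFN-γ against *E. coli* and 10 to 17 for IL-4 against IFN-γ effects. With a change of at least 2-fold also asked for, the numbers higher were 0 with *E. coli* (lower, 1), 3 with IFN-γ, 4 with both and 0 with IL-4 (lower, 0). They were then 0 for both against IFN-γ, 6 against *E. coli* (lower, 0) and 1 for the interaction, with 0 lower for IFN-γ against *E. coli* and 1 for IL-4 against IFN-γ effects.

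Without a filter, 2 were lower with IL-4 and 8 higher for both against *E. coli*, where 2 were lower with at least 10 counts in every library. For both against IFN-γ, 4 were higher in the 6 libraries alone and 12 with a replicate block, which gave 2 lower against *E. coli*. Deviations from the group means of log2 CPM had correlations from −0.05 to 0.33 between libraries of the same number. These were not set against libraries of unlike number, so they cannot show whether numbers pair.

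Direction turned where changes were near 0. The *Psmb9* difference between IL-4 and IFN-γ effects ran from −0.23 to 0.12 with 1 library left out and was 0.094 with at least 10 counts. *Psmb5* with IFN-γ ran from −0.11 to 0.14 and was 0.01 without a filter. With IL-4, *Psmb7* ran from −0.34 to 0.46 and had no value with at least 10 counts, *Psme1* ran from −0.073 to 0.03 and was 0.01 with at least 10 counts, and *Psme2* ran from −0.14 to 0.15 and was −0.002 without a filter.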
